A study of Saccharomyces cerevisiae with 6 samples.

Results

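The 50 genes described here encode the soluble machinery of protein synthesis in the cytosol of Saccharomyces cerevisiae, with 32 translation factors and 18 aminoacyl-tRNA synthetases among the 5925 genes of the deposited tables. They were chosen by gene symbol, from the known function of each product, at a time when earlier results of these data were known. RNA was measured by poly(A) RNA-seq in 6 libraries, 3 of BSGX001 and 3 of BSGX001 (thi2Δ), to compare a xylose-fermenting strain with its thi2Δ derivative. Both strains derive from CEN.PK 113-5D, and the labels give both the xylose isomerase Ru-XI, XK, the gre3::PPP replacement, cox4delta and adaptive evolution in xylose. BSGX001 (thi2Δ) is labelled with thi2delta in addition, a deletion in the gene of a transcriptional activator of thiamine synthesis. Cells of the GX stage were taken at 20 h from co-fermentations in YNB medium (glucose 20 g/L, xylose 20 g/L), and each group is a single strain. The labels do not say whether the 3 replicates of a strain were separate cultures, so the p-values below measure the spread between these libraries, which may be technical.

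The labels were checked against the genes they name. THI2 stood at 22.7, 24.5 and 27 CPM (counts scaled to library size with the TMM factors given below) in the libraries labelled BSGX001 and at 9.81, 10.9 and 13.9 CPM in those labelled thi2Δ, so that 46.6% of the THI2 signal was still counted where the gene is labelled as deleted. COX4 and GRE3, labelled as deleted or replaced in both strains, held between 222 and 721 counts in every library. For this reason the groups are called by their labels throughout. The libraries held between 7584920 and 12255688 counts. The 50 most abundant genes took 25.5% to 26.6% of the counts in the BSGX001 libraries and 21.2% to 21.7% in the thi2Δ-labelled ones, so that the choice of scaling shifts every gene: the median of all genes was 0.0093 on the log2 scale after TMM scaling (trimmed mean of M-values, which sets the bulk of the genes equal) and 0.22 when libraries were scaled by their totals only. The 85 tested genes of chromosome I had a median change of 0.99 and 107 genes of a chromosome XII segment, from ECM22 to GAS2, one of 1.06, and none of the 50 genes lies in these regions.

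Initiation factors bring the initiator tRNA, the small ribosomal subunit and the mRNA together, elongation factors deliver aminoacyl-tRNAs and move the ribosome along the message, and release factors free the finished chain at the stop codon. Aminoacyl-tRNA synthetases attach each amino acid to its tRNA. In growing yeast these genes are among the well expressed ones, and several factors are encoded by pairs of duplicated genes.

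A short motif that the choice of genes had not used was present in 38 of the 50 promoters and not found in the other 12. The ribosomal RNA processing element (RRPE), searched as AAAAATTT on both strands from 250 bases before to 50 bases after the start codon in the R64 reference of S288C, was found in 23 of the 32 factor promoters (71.9%) and in 15 of the 18 synthetase promoters (83.3%). Of all 6020 protein-coding promoters of the reference, 850 held it (14.1%). In PRT1 the only match lies inside the coding sequence, from 3 to 10 bases after the A of the start codon. The promoters of 5 genes are shown as examples, chosen after their values were seen: TIF34, which had the largest rise, EFT1 and SUI3, which had the largest falls of the factors, ILS1, a synthetase whose promoter also holds a match to the site of the activator Gcn4, and ANB1, the hypoxic gene of its pair. The letters come from RefSeq R64, run 5′ to 3′ on the coding strand of each gene, and have motif matches in capitals.
TIF34 (chrXIII:558475-558774, minus strand): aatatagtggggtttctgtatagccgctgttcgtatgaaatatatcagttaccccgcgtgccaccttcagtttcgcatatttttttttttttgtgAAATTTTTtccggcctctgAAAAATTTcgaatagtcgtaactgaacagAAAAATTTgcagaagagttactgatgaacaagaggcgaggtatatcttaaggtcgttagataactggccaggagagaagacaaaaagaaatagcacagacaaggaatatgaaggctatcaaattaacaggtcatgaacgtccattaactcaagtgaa
EFT1 (chrXV:574848-575147, plus strand): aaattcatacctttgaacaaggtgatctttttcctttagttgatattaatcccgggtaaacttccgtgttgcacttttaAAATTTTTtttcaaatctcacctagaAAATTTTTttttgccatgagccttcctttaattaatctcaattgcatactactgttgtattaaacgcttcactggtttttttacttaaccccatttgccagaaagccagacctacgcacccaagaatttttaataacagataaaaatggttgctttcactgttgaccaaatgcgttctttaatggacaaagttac
SUI3 (chrXVI:100246-100545, plus strand): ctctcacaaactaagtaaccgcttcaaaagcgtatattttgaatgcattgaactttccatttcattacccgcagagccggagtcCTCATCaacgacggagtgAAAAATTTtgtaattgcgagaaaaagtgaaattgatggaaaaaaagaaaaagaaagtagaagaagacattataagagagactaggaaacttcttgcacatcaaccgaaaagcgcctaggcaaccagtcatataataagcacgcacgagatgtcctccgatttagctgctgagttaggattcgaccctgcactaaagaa
ILS1 (chrII:84212-84511, minus strand): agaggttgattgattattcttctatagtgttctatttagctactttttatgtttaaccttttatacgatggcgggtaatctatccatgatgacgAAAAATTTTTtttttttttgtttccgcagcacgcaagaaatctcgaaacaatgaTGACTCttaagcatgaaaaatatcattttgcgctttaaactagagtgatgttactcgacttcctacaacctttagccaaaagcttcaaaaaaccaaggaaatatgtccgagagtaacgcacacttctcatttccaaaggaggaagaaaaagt
ANB1 (chrX:525332-525631, minus strand): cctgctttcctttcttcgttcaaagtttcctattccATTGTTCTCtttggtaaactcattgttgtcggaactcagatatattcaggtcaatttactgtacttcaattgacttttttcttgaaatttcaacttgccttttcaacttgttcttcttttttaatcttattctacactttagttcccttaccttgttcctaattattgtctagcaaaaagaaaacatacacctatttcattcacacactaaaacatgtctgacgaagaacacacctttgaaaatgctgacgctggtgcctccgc
In the TIF34 window the 3 capital runs are RRPE matches that begin at bases -155, -136 and -107 from the start codon, and in the EFT1 window they begin at -171 and -145. SUI3 holds an RRPE match at -148 and, at -166, the GATGAG core of the PAC element on the other strand. In ILS1 the 2 RRPE matches begin at -156 and -154 and overlap, since AAAAATTTTT holds the motif on both strands, and the Gcn4 match TGACTC begins at -102. ANB1 holds no RRPE match and is the only member with ATTGTTCTC, searched for the hypoxic repressor Rox1, at -214. Of all promoters, 0.714% held these letters.

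The RRPE match did not separate the members by their change between the strains. It stood in 7 of 9 members that were higher in the thi2Δ-labelled libraries (77.8%), in 15 of 21 that were lower (71.4%) and in 16 of the 20 that did not pass the test or were not tested (80%). A match began between bases -200 and -100 in 27 of the 38 members that had one (71.1%), and in 543 of the 850 promoters of the whole reference (63.9%). The Gcn4 letters TGACTC were found in 6 of 18 synthetase promoters (33.3%; ALA1, ILS1, KRS1, THS1, VAS1 and GLN4), in 0 of 32 factor promoters and in 7.96% of all promoters. In GLN4 this match lies inside the coding sequence, from 19 to 24 bases after the A of the start codon. The Rap1 core ACCCANACA was present in 2 synthetase promoters (11.1%), KRS1 and VAS1, in 0 of 32 factor promoters and in 1.46% of all promoters. In VAS1 it shares a base with the Gcn4 match. GATGAG occurred at 18.8% in the factors, 27.8% in the synthetases and 20.3% in all promoters. In the synthetases THS1 and WRS1 its only match spans the start codon itself. These are matches of letters in the reference strain, and binding was not measured.

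**Figure D1:**
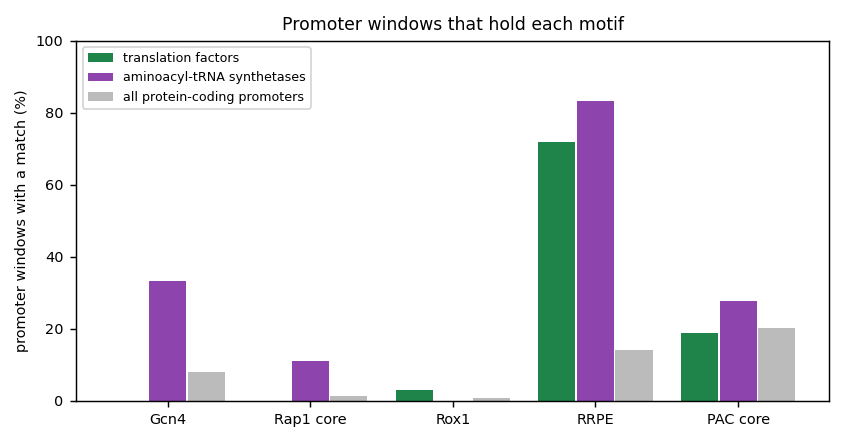
Share of promoter windows of 300 bases (%, vertical axis) with at least 1 match to each of 5 motifs, for the 32 translation factors, the 18 aminoacyl-tRNA synthetases and all 6020 protein-coding genes. The RRPE bars reach 71.9% and 83.3% against 14.1% for all promoters, while the PAC bars lie between 18.8% and 27.8%.

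The factors changed in both directions and by modest amounts. Among the 32 factors, 8 were higher and 13 lower in the thi2Δ-labelled libraries at an adjusted p under 0.05 (edgeR quasi-likelihood test, Benjamini-Hochberg adjustment over 5774 genes) and 11 did not pass. Over all genes tested the same threshold called 51.3%, with 26.1% higher and 25.2% lower, so that the share of factors called (65.6%) was above, and the share called higher close to, that of the genes at large. The median log2 fold change of the factors was -0.10, with a range from -0.80 to 0.44, and no factor changed by 2-fold or more, against 2.39% of all genes. The 3 libraries of a strain did not overlap with those of the other in 26 of the 32 factors, where 57.8% of all genes behaved so. With scaling by library totals, which called 51.9% of all genes higher and 10.3% lower, the split turned to 14 higher and 7 lower, the median became 0.12, and relative to the shifted median of all genes it stayed at -0.10. Of the 21 calls, 12 held in the same direction under all 16 alternatives that fitted genes singly. They were 6 rises (TIF34, TIF11, TEF4, GCD1, NIP1 and PRT1) and 6 falls (EFT1, SUI3, PAB1, TIF2, TEF2 and GCD11). Fits of summed gene pairs, given below, are not among these 16, and TEF4 summed with CAM1 changed by 0.016 (edgeR adjusted p = 0.867).

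Of the synthetases, 8 were lower and 1 was higher, 8 did not pass, and KRS1 was too weakly counted to be tested. Their median was -0.21, with a range from -0.63 to 0.28, and 10 of the 17 tested had libraries that did not overlap between the strains, a share near the 57.8% of all genes. The share called in either direction, 52.9%, was near the 51.3% of all genes, and the 8 of 17 called lower stand beside 25.2%. Scaling by library totals gave 5 higher and 3 lower and a median of 0.0068, which was -0.21 relative to all genes. The median rested in part on single libraries, being -0.13 without BSGX001 replicate 2, -0.14 without BSGX001 replicate 3 and -0.11 without thi2Δ replicate 2. DPS1, ALA1 and ILS1 as falls and SES1 as the rise held under all 16 alternatives.

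**Figure D2:**
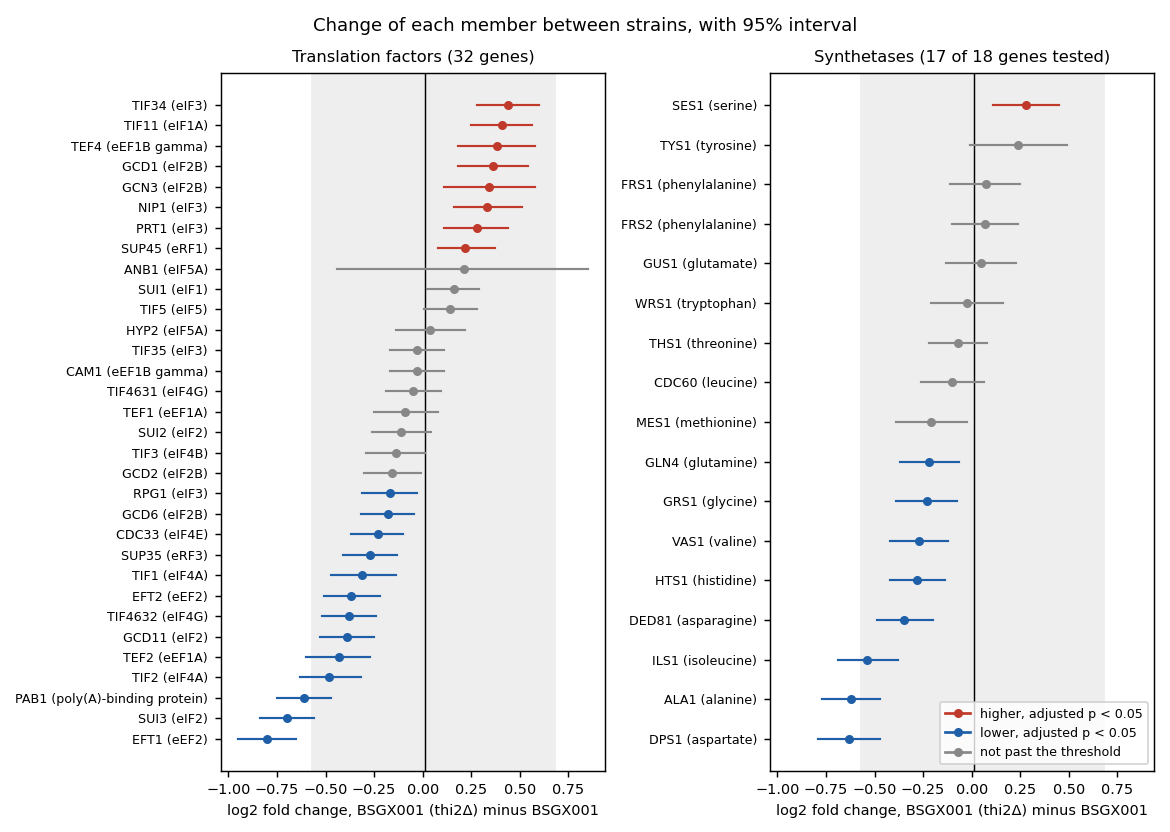
Log2 fold change of each gene, thi2Δ-labelled minus BSGX001 libraries (points, horizontal axis), with its 95% interval (bars, n = 3 per strain), for the factors at left and the synthetases at right. The vertical line is the median of all genes and the grey band runs from their 5th to their 95th percentile. EFT1, SUI3 and PAB1 among the factors and DPS1 and ALA1 among the synthetases lie below the band, whose lower edge is at -0.57, and no gene lies above its upper edge at 0.68.

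Initiation begins with the assembly of eIF2 with GTP and the initiator tRNA. All 3 genes of eIF2 had negative estimates, and 2 of them fell. Of all 5774 genes tested, 2822 had negative estimates and 25.2% were called lower. Among genes at or above 134 FPKM, where SUI3 and GCD11 lie, 46.7% were called lower. SUI3, the beta subunit, was counted at 538, 491 and 546 CPM in the BSGX001 libraries and at 332, 320 and 314 CPM in the thi2Δ-labelled ones. The groups did not overlap, and the lowest BSGX001 library lay far above the highest of the other group. The log2 fold change of SUI3 was -0.70 (95% interval -0.84 to -0.56, edgeR adjusted p = 4.38e-10), which left 61.4% of the level. GCD11, the GTP-binding gamma subunit, stood at 320, 341 and 358 CPM against 265, 255 and 258 CPM, again without overlap, and changed by -0.39 (-0.53 to -0.25, edgeR adjusted p = 1.52e-05). SUI2, the alpha subunit on which the kinase Gcn2 acts, had 90.4 ± 3.75 CPM (SD, n = 3) and 83.7 ± 0.854 CPM, a log2 difference of -0.11 that did not pass (edgeR adjusted p = 0.218) and was 0.11 with library totals. Per gene length the BSGX001 levels were 568 ± 31.3 FPKM (counts scaled to gene length and library total) for SUI3, 199 ± 8.17 for GCD11 and 91.6 ± 4.03 for SUI2, so the subunit with the highest mRNA level was the one with the largest fall.

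The exchange factor eIF2B, which reloads eIF2 with GTP, was divided. GCD1, its gamma subunit, had 43.3, 52.1 and 49.6 CPM in BSGX001 and 61.1, 66.5 and 58.3 CPM in the thi2Δ-labelled libraries, and GCN3, the regulatory alpha subunit, had 21.7, 23 and 20.4 against 23.5, 29.6 and 30.1 CPM. In both genes the groups were apart, narrowly so in GCN3, where replicate 1 of thi2Δ lay just above the highest BSGX001 library. GCD1 rose by 0.36 (0.18 to 0.54, edgeR adjusted p = 0.000933) and GCN3 by 0.34 (0.11 to 0.58, edgeR adjusted p = 0.014). GCD6, the catalytic epsilon subunit, fell by 0.18 (edgeR adjusted p = 0.0218), although with library totals its estimate was 0.034. The delta subunit GCD2 changed by -0.16 (edgeR adjusted p = 0.0749; 0.06 with library totals). GCN3 did not pass without BSGX001 replicate 3 (adjusted p = 0.0611) or thi2Δ replicate 3 (0.086), and GCD6 did not without BSGX001 replicate 2 (0.0777) or thi2Δ replicate 3 (0.0756) in the same edgeR test.

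The scaffold eIF3, which binds the small subunit and recruits the ternary complex, contributed 3 of the 8 rises. These were 3 of its 5 genes, beside 26.1% of all genes called higher. TIF34, the eIF3i subunit, had the largest rise of the 50 genes, from 86.9, 97.9 and 95.8 CPM to 114, 132 and 135 CPM. Every thi2Δ-labelled library was above every BSGX001 library. Its log2 fold change was 0.44 (0.28 to 0.60, edgeR adjusted p = 2.22e-05), or 136% of the BSGX001 level. NIP1, the eIF3c subunit, was at 52.9, 61.3 and 54.8 against 72.4, 62.7 and 77.4 CPM. Here replicate 2 of each strain came close to the other group without crossing it, and the change was 0.33 (0.16 to 0.51, edgeR adjusted p = 0.00181). PRT1, the eIF3b subunit, changed by 0.28 (edgeR adjusted p = 0.00464). RPG1, the eIF3a subunit, was called lower at -0.17 (edgeR adjusted p = 0.0361), but this call was lost when any thi2Δ replicate or BSGX001 replicate 2 or 3 was left out (adjusted p from 0.0603 to 0.109), and the estimate was 0.047 with library totals. TIF35, the eIF3g subunit, had -0.029 (edgeR adjusted p = 0.741; 0.19 with library totals). The mRNA levels of the 5 subunits were unequal per length in BSGX001, from 21.4 ± 1.67 FPKM for NIP1 and 26.4 ± 2.38 for PRT1 through 59.1 ± 1.75 for RPG1 and 83.1 ± 4.43 for TIF34 to 192 ± 3.48 for TIF35.

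Of the small factors that hold the scanning ribosome open, TIF11 (eIF1A) rose and SUI1 (eIF1) did not pass the threshold. TIF11 was at 72.3, 73.7 and 74.3 CPM in BSGX001 and at 91.6, 106 and 95.2 CPM in the thi2Δ-labelled libraries. The BSGX001 libraries lay within a narrow range well below the others, and the change was 0.41 (0.25 to 0.56, edgeR adjusted p = 5.26e-05). SUI1 had 175 ± 4.5 and 195 ± 2.25 CPM, with no overlap, and a change of 0.16 (edgeR adjusted p = 0.0505). TIF5, the GTPase activator of eIF2, likewise had no overlap and changed by 0.14 (edgeR adjusted p = 0.0757). With library totals SUI1 was at 0.37 and TIF5 at 0.36, and both were called higher.

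At the cap, the genes of the factors that bind and unwind the mRNA had negative estimates in all 7 cases, and 5 of them fell, beside 25.2% of all genes. Of all 5774 genes tested, 2822 had negative estimates. Among genes at or above 134 FPKM, where PAB1, CDC33, TIF4632 and TIF2 lie, 46.7% were called lower. With library totals 3 of the 5 calls held, those of PAB1, TIF4632 and TIF2. PAB1, the poly(A)-binding protein that bridges the tail to eIF4G, was at 718, 734 and 774 CPM and then at 499, 476 and 480 CPM. The groups were far apart, and the change was -0.61 (-0.75 to -0.47, edgeR adjusted p = 8.04e-09). CDC33, the cap-binding eIF4E, fell by 0.23 (edgeR adjusted p = 0.00475), and its estimate was -0.017 with library totals, where the call was lost. Of the eIF4G scaffolds, TIF4632 fell by 0.38 (edgeR adjusted p = 2.98e-05; -0.16 and adjusted p = 0.0546 with limma on log2(FPKM + 1)) and TIF4631 changed by -0.05 (edgeR adjusted p = 0.576; 0.17 with library totals). TIF3, the eIF4B cofactor of the helicase, changed by -0.14 (edgeR adjusted p = 0.117; 0.077 with library totals). The helicase itself, eIF4A, is encoded by TIF1 and TIF2 and is described with the other gene pairs.

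**Figure D3:**
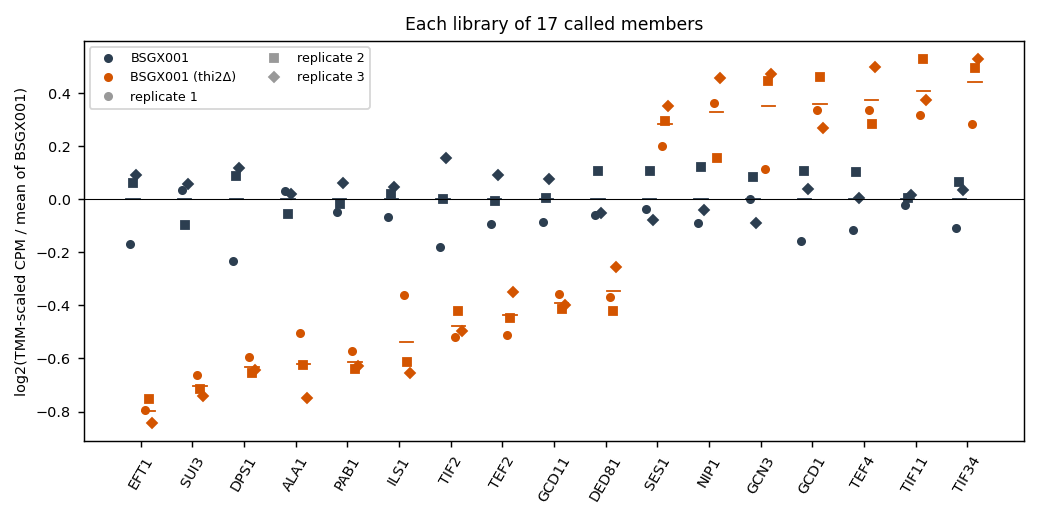
Log2 ratio of the TMM-scaled CPM of each library to the BSGX001 mean (vertical axis) for 17 called members whose libraries did not overlap (the 6 largest rises and 6 largest falls of the factors, the 4 largest falls and the only rise of the synthetases), BSGX001 libraries in dark blue and thi2Δ-labelled libraries in orange, symbols marking the replicate number and short lines the group means. The genes run from EFT1 at left to TIF34 at right, and by the way they were chosen no orange symbol overlaps a dark one of the same gene.

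Several factors are made from near-identical gene copies, and the reads of such a pair may be divided between the copies by the counting. The coding sequences of TEF1 and TEF2 (eEF1A, which carries aminoacyl-tRNAs to the ribosome) differ at 2 of 1377 bases, those of EFT1 and EFT2 (eEF2, which moves the ribosome forward) at 4 of 2529 and those of TIF1 and TIF2 at 6 of 1188. Windows of 50 bases were identical in both copies for 92.5%, 91.9% and 84.9% of positions, whereas HYP2 and ANB1 (eIF5A) differ at 43 of 474 bases and share 0 such windows. The 90 coding bases from 745 to 834 of the eEF1A genes and from 289 to 378 of the eIF5A genes show the contrast, with differing bases in capitals and the letters taken from RefSeq R64 on the coding strand.
TEF1 (chrXVI, gene at 700594-701970, plus strand): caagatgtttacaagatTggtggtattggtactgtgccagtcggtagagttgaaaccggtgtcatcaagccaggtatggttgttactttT
TEF2 (chrII, gene at 477671-479047, plus strand): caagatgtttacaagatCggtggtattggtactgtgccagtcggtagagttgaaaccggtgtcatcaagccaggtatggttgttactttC
HYP2 (chrV, gene at 85676-86149, plus strand): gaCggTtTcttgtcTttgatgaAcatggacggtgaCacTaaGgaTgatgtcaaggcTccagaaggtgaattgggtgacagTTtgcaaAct
ANB1 (chrX, gene at 524908-525381, minus strand): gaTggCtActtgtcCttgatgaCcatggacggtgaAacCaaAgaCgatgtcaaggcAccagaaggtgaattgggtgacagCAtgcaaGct
Within this stretch the eEF1A copies differ at 2 bases, which are the only differences of the whole gene, and the eIF5A copies at 13. How the counting treated reads that match both copies was not given in the sources used here, so the values of TEF1, TEF2, EFT1, EFT2, TIF1 and TIF2 are uncertain singly, and each pair was also fitted as a sum.

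TEF2 had the highest mRNA level of all members per length, at 2609 ± 125 FPKM in BSGX001, and TEF1 had 703 ± 72.9. TEF2 was at 3637, 3859 and 4130 CPM in BSGX001 and at 2716, 2840 and 3045 CPM in the thi2Δ-labelled libraries, while TEF1 was at 906, 1110 and 1120 against 898, 1001 and 1050 CPM. The groups were apart for TEF2 and overlapped for TEF1. TEF2 changed by -0.43 (-0.60 to -0.27, edgeR adjusted p = 4.39e-05) and TEF1 by -0.089 (-0.25 to 0.077, edgeR adjusted p = 0.373; 0.13 with library totals). Summed, the pair changed by -0.35 (-0.52 to -0.18, edgeR adjusted p = 0.000751).

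EFT1 had the largest change of the 50 genes. It was at 626, 734 and 750 CPM in BSGX001 and at 406, 417 and 392 CPM in the thi2Δ-labelled libraries, where 57.6% of its level was left. Its log2 fold change was -0.80 (-0.95 to -0.65, edgeR adjusted p = 1.5e-10). EFT2 was at 328, 370 and 400 against 290, 276 and 284 CPM. The groups did not overlap in either gene. The change of EFT2 was -0.37 (-0.51 to -0.22, edgeR adjusted p = 8.53e-05), and it did not pass with library totals (-0.15, adjusted p = 0.0553). The summed pair changed by -0.64 (-0.79 to -0.48, edgeR adjusted p = 2.22e-08).

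The eIF4A genes moved in the same direction as each other. TIF2 was at 233, 264 and 294 CPM and at 184, 197 and 187 CPM in the thi2Δ-labelled libraries, and TIF1 was at 132, 161 and 160 against 131, 120 and 115 CPM. For TIF1 the highest thi2Δ-labelled library, replicate 1, lay just under the lowest BSGX001 library. The changes were -0.48 (-0.63 to -0.32, edgeR adjusted p = 3.65e-06) for TIF2 and -0.31 (-0.47 to -0.14, edgeR adjusted p = 0.00177) for TIF1, which became -0.089 with library totals (adjusted p = 0.315). Summed, the pair changed by -0.41 (-0.56 to -0.26, edgeR adjusted p = 2.2e-05).

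The eEF1B gamma subunit, part of the exchange factor that recharges eEF1A, comes from TEF4 and CAM1, which share 0 windows of 50 bases. TEF4 was at 27.8, 32.3 and 30.2 CPM and at 38, 36.7 and 42.5 CPM in the thi2Δ-labelled libraries, with no overlap, and CAM1 was at 248, 268 and 297 against 262, 257 and 276 CPM, with overlap. TEF4 changed by 0.38 (0.18 to 0.58, edgeR adjusted p = 0.00175). CAM1 changed by -0.03 (-0.17 to 0.11, edgeR adjusted p = 0.745; 0.19 with library totals). CAM1 was the stronger of the pair per length, with 201 ± 15 FPKM in BSGX001 against 22.5 ± 1.55 for TEF4, whose annotated gene also spans the small nucleolar RNA gene SNR38, and the sum of the pair changed by 0.016 (-0.13 to 0.16, edgeR adjusted p = 0.867).

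For eIF5A, which helps the ribosome join amino acids at slow sites, HYP2 is the copy used with oxygen and ANB1 the hypoxic copy. HYP2 was at 100, 120 and 132 CPM in BSGX001 and at 111, 114 and 135 CPM in the thi2Δ-labelled libraries. ANB1 was the lowest of the factors, at 2.42, 1.57 and 3.61 against 1.99, 3.63 and 3.25 CPM. Both overlapped between the groups. Neither passed, with 0.037 (-0.14 to 0.22, edgeR adjusted p = 0.746) for HYP2 and 0.21 for ANB1 (edgeR adjusted p = 0.61), whose interval from -0.44 to 0.85 covers every rise seen in the other members. With library totals HYP2 was called higher, at 0.26.

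Termination depends on SUP45 (eRF1), which reads the stop codon, and SUP35 (eRF3), its GTPase partner, and they moved apart. SUP45 rose from 116 ± 3.41 to 135 ± 5.95 CPM, a change of 0.22 (edgeR adjusted p = 0.0101) that did not pass without thi2Δ replicate 2 (adjusted p = 0.0545). SUP35 fell from 206 ± 7.8 to 171 ± 7.34 CPM, a change of -0.27 (edgeR adjusted p = 0.00163) that was -0.051 with library totals (adjusted p = 0.504).

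Ratios of FPKM between partner genes in the same library do not depend on how libraries are scaled, and 12 such ratios were formed after the values of the genes were known. SUI3 to SUI2 was 6.54, 5.54 and 6.57 in the BSGX001 libraries and 4.2, 4.13 and 3.99 in the thi2Δ-labelled ones. TIF34 to RPG1 was 1.37, 1.44 and 1.4 against 1.95, 2.21 and 2.29, and SUP35 to SUP45 was 1.09, 1.11 and 1.22 against 0.875, 0.757 and 0.797. The groups were apart in each of these, with the partners in the release factors changing places as the stronger mRNA. EFT1 to EFT2 went from 1.92 ± 0.0555 to 1.43 ± 0.0711 (SD, n = 3), TEF2 to TEF1 from 3.73 ± 0.271 to 2.92 ± 0.0944 and CAM1 to TEF4 from 8.95 ± 0.761 to 6.75 ± 0.271. GCD6 to GCD1 went from 4.56 ± 0.474 to 3.12 ± 0.149, TIF4632 to TIF4631 from 3.11 ± 0.183 to 2.49 ± 0.209 and GCD11 to SUI2 from 2.17 ± 0.14 to 1.79 ± 0.0219. All 9 of these ratios had groups that did not overlap. Each reached p = 0.1 in a two-sided exact permutation test, the smallest value possible with 3 libraries against 3. After Benjamini-Hochberg adjustment over the 12, the exact permutation p was 0.133. All but EFT1 to EFT2 pair a called gene with one not called or called in the other direction. With pairs chosen in this way, these p-values cannot test whether the partners moved apart. Of all single genes tested, 57.8% did not overlap between the strains, and no such share was computed for other gene pairs. TIF2 to TIF1 (1.74 ± 0.1 and 1.56 ± 0.135, exact permutation p = 0.2), HYP2 to ANB1 (51.3 ± 21.7 and 42.8 ± 12.3, p = 0.7) and FRS2 to FRS1 (1.81 ± 0.0432 and 1.8 ± 0.0816, p = 0.9) overlapped. The ratios of EFT1 to EFT2, TEF2 to TEF1 and TIF2 to TIF1 compare near-identical copies. They also depend on how reads matching both copies were counted, which was not given.

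**Figure D4:**
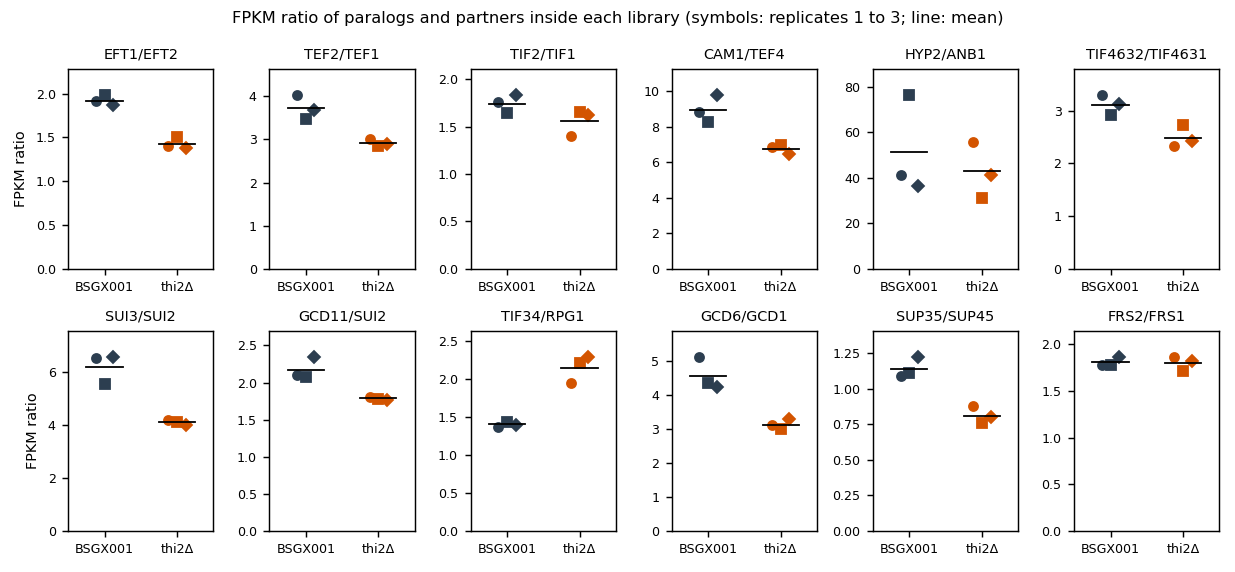
FPKM ratio of 12 gene pairs inside each library (vertical axes from 0), BSGX001 libraries in dark blue and thi2Δ-labelled libraries in orange, with replicates 1 to 3 as circle, square and diamond and the mean as a line. As written, TIF34/RPG1 is the only ratio whose mean is higher in the thi2Δ-labelled libraries, at 2.15 against 1.41. The direction of each ratio depends on which gene was put first. FRS2/FRS1 has nearly the same mean in both, at 1.8 and 1.81.

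Among the synthetases the 3 largest falls were also 3 genes of high level. DPS1, for aspartate, was at 193, 241 and 246 CPM in BSGX001 and at 150, 144 and 145 CPM in the thi2Δ-labelled libraries. ALA1, for alanine, was at 703, 662 and 696 against 485, 446 and 409 CPM, and ILS1, for isoleucine, at 601, 638 and 650 against 490, 412 and 400 CPM. In all 3 genes every thi2Δ-labelled library was below every BSGX001 library, and BSGX001 replicate 1 was the lowest of its group for DPS1. The changes were -0.63 for DPS1 (-0.79 to -0.47, edgeR adjusted p = 5.71e-08), -0.62 for ALA1 (-0.77 to -0.47, edgeR adjusted p = 1.74e-08) and -0.54 for ILS1 (-0.69 to -0.38, edgeR adjusted p = 5.48e-07). Per length ALA1 had the highest mRNA level of the synthetases at 221 ± 8.24 FPKM in BSGX001, followed by ILS1 at 181 ± 4.82 and DPS1 at 126 ± 14.5. DED81, for asparagine, came next, at 181, 203 and 182 against 146, 141 and 158 CPM without overlap, with a change of -0.35 (-0.49 to -0.20, edgeR adjusted p = 0.000173) that became -0.13 with library totals (adjusted p = 0.113).

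SES1, for serine, was the only synthetase called higher. It was at 49.1, 54.3 and 47.8 CPM in BSGX001 and at 57.9, 61.8 and 64.3 CPM in the thi2Δ-labelled libraries. The groups were apart, and the change was 0.28 (0.11 to 0.45, edgeR adjusted p = 0.00576). TYS1, for tyrosine, had the lowest level of the tested synthetases, at 12.9 ± 1.06 FPKM in BSGX001, and its change of 0.24 did not pass (-0.011 to 0.49, edgeR adjusted p = 0.103), although its libraries did not overlap. With library totals TYS1 was called higher, at 0.45.

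By structural class, 5 of the 9 tested class II enzymes fell and 1 rose, and 3 of the 8 class I enzymes fell. The shares called were 66.7% in class II and 37.5% in class I, beside 51.3% of all genes, of which 25.2% were lower, and the difference between the classes was not tested. The 4 genes whose single locus supplies both a cytosolic and a mitochondrial enzyme, ALA1, GRS1 (glycine), HTS1 (histidine) and VAS1 (valine), were all called lower, with a median of -0.28 beside -0.21 for all tested synthetases. All 4 are among the 8 synthetases of highest level, of which 7 were called lower. GRS1 changed by -0.23, HTS1 by -0.28 and VAS1 by -0.27 (edgeR adjusted p = 0.0128, 0.00126 and 0.00237), and none of these 3 passed with library totals, where their estimates were -0.013, -0.065 and -0.054. GRS1 also did not pass without BSGX001 replicate 2 (adjusted p = 0.0846) or 3 (0.0777). GLN4, for glutamine, changed by -0.22 (edgeR adjusted p = 0.016) and did not pass without BSGX001 replicate 2 (0.0832) or thi2Δ replicate 3 (0.0778). With library totals the estimate of GLN4 was -0.0027 (edgeR adjusted p = 0.977). FRS1 and FRS2, the subunits of the phenylalanine enzyme, had nearly the same change, 0.073 and 0.067 (edgeR adjusted p = 0.507 and 0.519). With library totals both were called higher, at 0.29 and 0.28 (edgeR adjusted p = 0.00703 and 0.0051). The remaining 5 ranged from -0.21 for MES1 (methionine, edgeR adjusted p = 0.0521) through CDC60 (leucine), THS1 (threonine) and WRS1 (tryptophan) to 0.048 for GUS1 (glutamate), with no call. With library totals GUS1 was called higher, at 0.26.

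KRS1, the cytosolic enzyme for lysine, was nearly without counts. The files gave it 8, 9 and 7 counts in BSGX001 and 8, 11 and 10 in the thi2Δ-labelled libraries, or 0.512 ± 0.0613 and 0.594 ± 0.223 FPKM, which placed it at percentile 1.5 of all genes. The groups overlapped, no difference was detectable at this depth, and the gene failed the filter on low counts. It lies at chrIV:525440-527215, where its neighbour EHD3 had 0 counts in 5 libraries and 1 count in the other, while ARO3 on the same side had 1119 to 1942 counts and RSM10 beyond ENA1 on the other side had 234 to 544. ENA1, between KRS1 and RSM10, had 16 to 38 counts. The reason for the low counts at KRS1 and EHD3 was not tested.

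Across members, the stronger mRNAs had the lower log2 fold changes. Spearman's rho between the mean log2 FPKM and the log2 fold change was -0.51 over the 32 factors and -0.78 over the 17 tested synthetases, beside -0.32 over all 5774 genes. These are descriptions across genes, which share the same 6 libraries and are not independent replicates. Of the 8 tested synthetases with the highest levels, 7 fell and 0 rose, and of the 9 others 1 fell and 1 rose. Of all genes at or above the level of the weakest of those 8 (60.6 FPKM), 37.8% fell and 20.6% rose, and of the genes below it 13.8% fell and 31.1% rose. Of the 16 factors with the highest levels, 8 fell and 1 rose, and of the 16 others 5 fell and 7 rose. At or above the matching level of 134 FPKM 46.7% of all genes fell and 17.2% rose, and below it 18.1% fell and 29% rose, so the genes at large showed the same trend. As a share of all counts the factors took 1.03%, 1.08% and 1.1% in BSGX001 and 0.968%, 1.01% and 1.04% in the thi2Δ-labelled libraries, which overlap by a single library. The synthetases took 0.272%, 0.288% and 0.279% against 0.262%, 0.247% and 0.25%, without overlap.

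**Figure D5:**
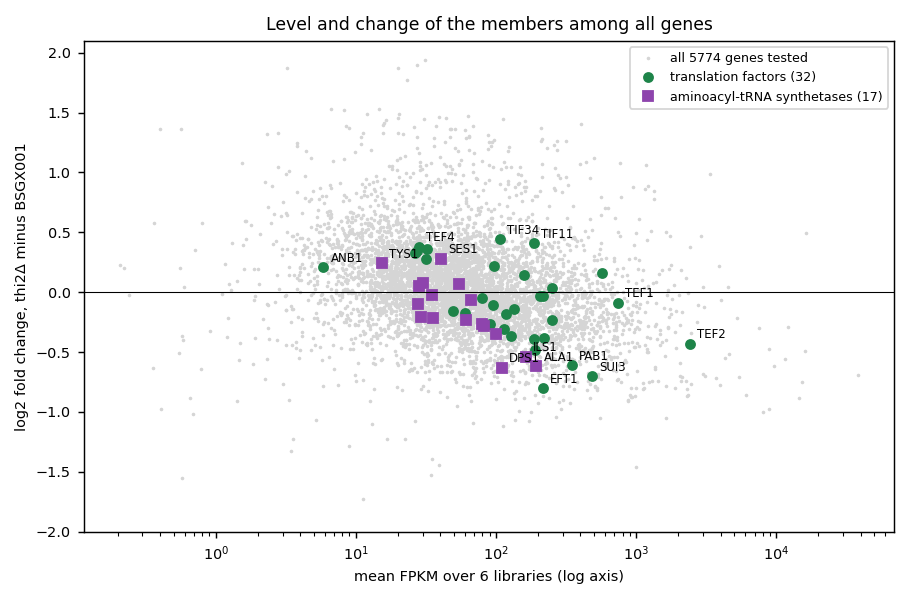
Log2 fold change, thi2Δ-labelled minus BSGX001 libraries (vertical axis), against the mean FPKM of the 6 libraries (horizontal log axis) for all 5774 genes tested (grey), the 32 factors (green) and the 17 tested synthetases (purple). Among the purple squares (rho = -0.78) TYS1 lies furthest left and ALA1 furthest right, with SES1, the only rise, between them at 40.6 FPKM. TEF2 is the factor of highest level.

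A list of 59 further genes of translation was set beside the members. Of the 58 tested, 12 were higher and 10 lower, with a median of 0.042, and the share called, 37.9%, was below the 51.3% of all genes. The 3 largest rises were GCD7 (the eIF2B beta subunit, 1.25), EFB1 (the eEF1B alpha subunit, 1.12) and GUF1 (a mitochondrial elongation factor, 0.94), and each of them lies on chromosome I or in the chromosome XII segment. Both further genes of the list in these regions rose as well, YEF3 (the fungal elongation factor eEF3) by 0.51 and FUN12 (eIF5B) by 0.45. So the eIF2B subunit genes ran from -0.18 for GCD6 to 1.25 for GCD7, which was at 64.6, 60.2 and 58.5 CPM in BSGX001 and at 140, 152 and 145 CPM in the thi2Δ-labelled libraries. Outside these regions 7 of 53 were higher and 10 lower. The 3 largest falls were ARB1 (an ATPase of ribosome assembly, -0.89), DED1 (a helicase that opens mRNA for scanning, -0.88) and EAP1 (an eIF4E-binding protein, -0.69). DED1 was at 1963, 2190 and 2428 CPM against 1275, 1109 and 1200 CPM, with no overlap. Of the 4 other cytosolic synthetase or cofactor genes 1 was higher and 0 lower, and of the 17 mitochondrial synthetase and amidotransferase genes 3 were higher and 2 lower. With library totals, which called 51.9% of all genes higher and 10.3% lower, the list had 36 higher and 4 lower.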

How the data were processed

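Poly(A) RNA of 6 libraries was measured on an Illumina HiSeq instrument, and strain and replicate were taken from the labels. Per library and gene the authors deposited a count, a whole number that is not normalized, and an FPKM, scaled to gene length and library total. The length implied by count and FPKM was within 1% of the R64 gene length for 95.4% of genes, and TEF4, which has an intron, is among the others. The submitters' processing notes name the build R64 and DESeq, and the aligner and the counting of reads matching several genes were not given in the sources used here. The authors' strain comparison (fold changes, p and q values) was not used, nor were 12 further columns of the series' tables, which repeat the library files.

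Counts were fitted with edgeR 4.0.16 in R 4.3.3 (TMM, filterByExpr with a minimum count of 10, robust quasi-likelihood fit, Benjamini-Hochberg adjustment over 5774 genes, threshold 0.05), and the code was tested on simulated data. CPM values are TMM-scaled. Alternatives used DESeq2 1.42.0 and limma 3.58.1 on log2(FPKM + 1) and log2(FPKM + 0.1). Totals of 7584920 to 12255688 counts per library limit the precision of weak genes. No 2 libraries agreed within counting noise, the lowest chi-square per degree of freedom being 4.05. Of 5925 deposited gene IDs, 5923 matched R64.

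Values in every library are given for the gene pairs, the 6 largest rises and falls of the factors and the 4 of the synthetases among called genes whose libraries did not overlap, the highest and lowest levels and genes failing the filter. Of the list of 59 genes, the 3 largest rises and falls and those of the chromosome I and XII regions are named. The members, lists, rules and motifs were chosen with earlier results of these data known.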

Additional observations from a re-analysis of the deposited data

How the results depend on the processing

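Calls were unchanged for all tested members with DESeq2 and without the filter on low counts. DESeq2 size factors in edgeR added MES1 as a call, and a minimum of 10 counts in every library added SUI1. Scaling moved the results most. With library totals the factors had 14 higher and 7 lower (median 0.12), the synthetases 5 and 3 (0.0068) and the further genes of translation 36 and 4, and 15 of 21 factor calls and 4 of 9 synthetase calls were kept in their direction. With limma on log2(FPKM + 1) these were 13 and 6 (0.12), 5 and 3 (-0.0029) and 36 and 4, and with log2(FPKM + 0.1) 13 and 6 (0.12), 5 and 3 (-0.003) and 36 and 4. FPKM are scaled by totals, so these alternatives share the shift of 0.22 in the median of all genes. New factor calls with library totals, all higher, were CAM1, HYP2, TIF5, TIF35, TIF4631 and SUI1. Those of the synthetases, also all higher, were FRS1, FRS2, TYS1 and GUS1. This scaling called 51.9% of all genes higher. Estimates that changed sign with library totals were CAM1 0.19, CDC60 0.12, GCD2 0.06, GCD6 0.034, MES1 0.0068, RPG1 0.047, SUI2 0.11, TEF1 0.13, THS1 0.15, TIF3 0.077, TIF35 0.19, TIF4631 0.17 and WRS1 0.19. With limma and a pseudocount of 1 they were CAM1 0.19, CDC60 0.11, GCD2 0.062, GCD6 0.036, RPG1 0.046, SUI2 0.11, TEF1 0.13, THS1 0.15, TIF3 0.076, TIF35 0.19, TIF4631 0.16 and WRS1 0.19, and with 0.1 the values were the same but for GCD2 0.063, RPG1 0.047 and TIF3 0.077. Leaving out each library in turn gave 7 to 9 higher and 11 to 13 lower factors (median -0.13 to -0.062), 1 higher and 6 to 9 lower synthetases (-0.22 to -0.11), and 10 to 13 higher and 7 to 11 lower further genes. Signs changed only for genes that were no calls. Without BSGX001 replicate 1 FRS1 was at -0.00013 (up to 0.17 in the other leave-one-out fits), FRS2 at -0.012 (up to 0.15), GUS1 at -0.047 (up to 0.14) and HYP2 at -0.065 (up to 0.13; -0.055 without thi2Δ replicate 3). ANB1 ran from -0.044 without BSGX001 replicate 2 to 0.50, CAM1 from -0.089 to 0.04 without BSGX001 replicate 3, WRS1 from -0.11 to 0.076 without thi2Δ replicate 1 and TIF4631 from -0.10 to 0.012 without thi2Δ replicate 2. Fitted without the regions of chromosomes I and XII, 7 further genes were higher, as the 5 in those regions are not in that fit, RPG1 did not pass (adjusted p = 0.0572) and SUI1 did (0.0339). Summing the eEF1B gamma pair gave 0.016, against -0.03 for CAM1 and 0.38 for TEF4. At a threshold of 0.01, 17 of 21 factor calls and 7 of 9 synthetase calls remained.

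Deviations of same-numbered libraries had correlations of 0.057, -0.097 and -0.019, and those of the other combinations ran from -0.092 to 0.12. The labels do not say whether the numbers mark a shared culture, day or batch, and correlations from 3 libraries per strain cannot decide this. With the replicate number as a block the factors had 8 higher and 13 lower and the synthetases 1 higher and 9 lower (median -0.22), MES1 being added, and the further genes 12 higher and 11 lower.

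Few counts left a wide interval for ANB1 and no test for KRS1, whose low counts were not explained here. The label of the thi2Δ libraries is not settled by THI2, and the effect of this on the comparison was not tested.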
